A study of Mus musculus with 9 samples.

Results

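The proteasome genes of mouse embryos at the 2-cell stage were taken as every gene whose symbol begins with Psm, a letter from a to g and a number. The rule found 49 of the 24454 genes of the deposited count table, and 46 of them had enough reads to be tested. Zygotes of the ICR strain, an outbred stock, were cultured to the 2-cell stage in 3 groups. The ZGW serum group had high glucose in the culture together with serum of rats dosed with ZGW, a preparation that the labels do not spell out. The high glucose group had the glucose alone, and the control group had neither. The labels do not say whether the last 2 groups got serum of undosed rats. Each group had 3 libraries, and each library pooled 3 embryos, so values are averages over whole embryos. Fewer cells with a transcript and less of it in each cell cannot be told apart in such pools.

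The proteasome is the protease that removes most proteins tagged with ubiquitin in the cytoplasm and nucleus. Its core particle is a barrel of stacked rings. The outer rings are built from alpha subunits, encoded by the Psma genes, and gate the entrance. The inner rings are built from beta subunits, encoded by the Psmb genes, and hold the cutting sites in Psmb5, Psmb6 and Psmb7. The regulatory particle sits on the ends of the barrel. Its base contains the Psmc ATPases, which unfold and feed in substrates, and the scaffold and ubiquitin receptor subunits Psmd1, Psmd2 and Psmd4. Its lid is built from further Psmd subunits, among them Psmd14, the enzyme that takes the ubiquitin chain off. The Psme genes encode caps that open the barrel without ATP, Psmf1 encodes an inhibitor, and the Psmg genes with Psmd5, Psmd9 and Psmd10 encode chaperones of assembly. In early embryos the ubiquitin-proteasome pathway is known for clearing proteins laid down in the egg.

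The 49 genes fell into 8 alpha ring subunits, 7 standard beta ring subunits, 4 beta subunits of the immune and thymus variants, 6 ATPases, 3 further base subunits, 8 lid subunits, 5 caps, 1 inhibitor and 7 assembly chaperones. The genes Psma8, Psmb9 and Psme2b had too few reads for a test. The deposited table held from 11934924 to 16916343 counts per library. Values are given as CPM, a gene's counts per library scaled to a common total, after TMM scaling of the library sizes. Oocyte and 2-cell marker genes were detected in every library, with summed levels of at least 887 CPM for 8 oocyte genes and at least 1605 CPM for 8 transcripts of the 2-cell stage. A principal component with 17.8% of the variance had control library 1 and ZGW serum library 3 at its ends, and results were also computed without that pair. The labels call the libraries of a group biological replicates.

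Promoter sequences are shown for 3 members named in the comparisons: the ATPase Psmc6 and the assembly chaperone Psmd5, which separated all groups, and the catalytic subunit Psmb6, which was higher in all ZGW serum libraries than in high glucose. They come from RefSeq on build GRCm38.p6 and run 5′ to 3′ on the gene's strand, from 250 bases before the start of the gene to 50 bases after it. Psmc6 lies at chr14:45329574-45329873 on the plus strand and Psmd5 at chr2:34870913-34871212 on the minus strand. Psmb6 lies at chr11:70525107-70525406 on the plus strand. Capitals mark matches to TGACNNNGC, the core of the antioxidant response element, on either strand. Nfe2l1 and Nfe2l2, transcription factors known to drive proteasome genes, bind this element.
Psmc6: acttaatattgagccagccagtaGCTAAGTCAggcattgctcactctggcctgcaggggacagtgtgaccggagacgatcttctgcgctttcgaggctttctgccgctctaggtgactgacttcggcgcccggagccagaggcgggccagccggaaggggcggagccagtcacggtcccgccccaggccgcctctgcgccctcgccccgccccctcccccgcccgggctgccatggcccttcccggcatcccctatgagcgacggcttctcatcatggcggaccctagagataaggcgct
Psmd5: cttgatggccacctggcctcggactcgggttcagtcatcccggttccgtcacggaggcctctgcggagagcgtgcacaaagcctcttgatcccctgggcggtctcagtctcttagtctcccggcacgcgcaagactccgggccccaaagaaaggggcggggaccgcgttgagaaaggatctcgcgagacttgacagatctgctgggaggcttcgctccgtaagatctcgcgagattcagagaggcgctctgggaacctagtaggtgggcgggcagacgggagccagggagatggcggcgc
Psmb6: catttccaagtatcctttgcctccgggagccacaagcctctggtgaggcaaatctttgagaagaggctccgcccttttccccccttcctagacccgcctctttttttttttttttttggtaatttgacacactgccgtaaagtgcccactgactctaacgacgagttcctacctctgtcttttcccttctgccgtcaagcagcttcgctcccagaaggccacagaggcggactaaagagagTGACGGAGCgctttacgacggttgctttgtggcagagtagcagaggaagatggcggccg
The match in Psmc6 began 227 bases before the RefSeq start of the gene, and that in Psmb6 9 bases before its RefSeq start. These letters were not in the Psmd5 window. GENCODE, the source of gene positions and lengths given below, uses other starts, 45329788 for Psmc6, 34874968 for Psmd5 and 70525367 for Psmb6. A promoter was matched for 41 of the 49 members, and 6 of those held the motif: Psmb5, Psmb6, Psmc6, Psmd9, Psmd12 and Psme4. That share of 14.6% stood beside 13.99% over the 27025 genes with a promoter in the table. A match of letters is a description of the window and no evidence of binding.

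Transcripts of the standard proteasome were abundant in all groups. Per kilobase of the longest coding transcript, averaged over the 9 libraries, the median of the 49 members was 19.5 CPM per kilobase, against a median of 3.32 over the 16245 tested genes with a length. The standard core particle was higher per length than the regulatory particle, with medians of 72.6 over 14 genes and 16.2 over 17 genes. Psmb2, a beta ring subunit without a cutting site, had the highest level of all at 207 CPM per kilobase. The alpha subunits Psma1 at 101 and Psma7 at 99.9 and the beta subunit Psmb3 at 98.4 followed. The lowest standard beta subunit was Psmb5, the chymotrypsin-like one, at 9.87 CPM per kilobase, but it shares 57.1% of its 50-base stretches with other genes, so its reads may be split. The same limit holds for Psmb3, at 55.8%. With a union of all exons as the length, Psmb4 was lower, at 7.44 against 9.87 for Psmb5. Psmc6 was the highest ATPase at 37.7 and Psmc3 the lowest at 5.31. In the lid, levels ran up to 37.6 for Psmd7 and down to 0.60 for Psmd13. A union of all exons as the length gave 41.2 for Psma1, so the order of neighbours depends on the gene model.

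**Figure D1:**
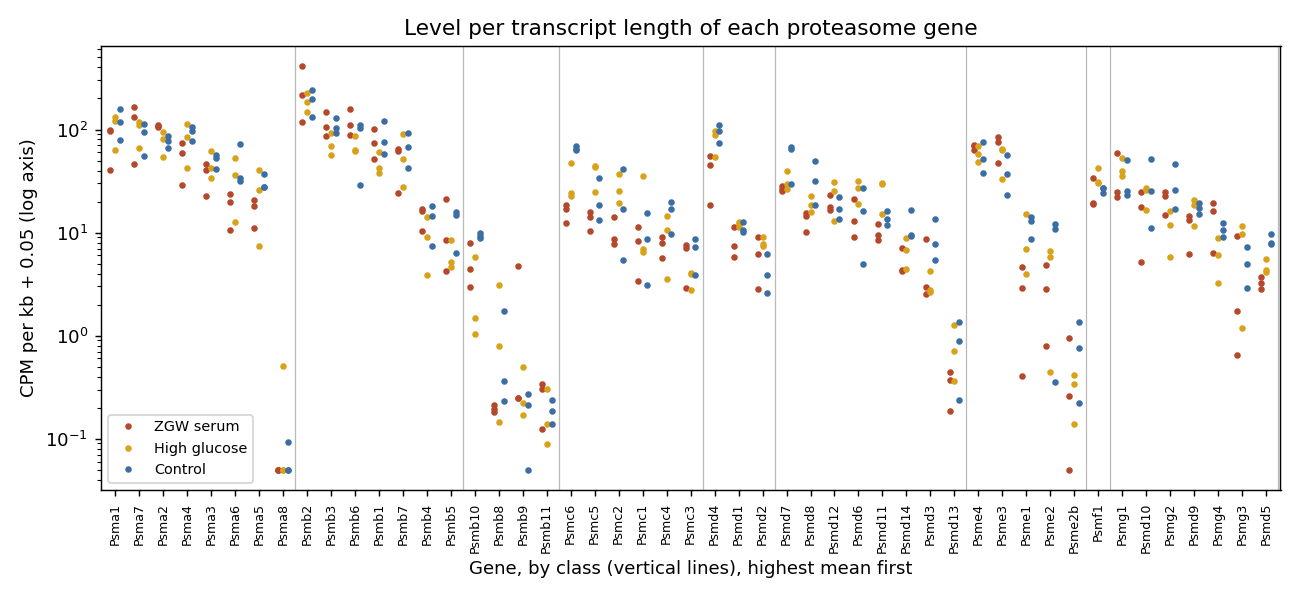
Level of each proteasome gene per kilobase of its longest coding transcript, in CPM per kilobase plus 0.05 on a log axis, with a point for each ZGW serum, high glucose and control library. Psmb2, at 207 on average, lies highest, and the immune, thymus and testis variants other than Psmb10 lie among the lowest.

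Subunits of the specialised proteasomes other than Psmb10 were at or near the floor. Psma8, the alpha subunit of the testis proteasome, had 0 reads in all 3 ZGW serum libraries, 0, 10 and 0 reads in the high glucose libraries and 1, 0 and 0 reads in the control libraries. Psmb8, a catalytic subunit of the immunoproteasome, had 0.24, 0.21 and 0.27 CPM in the ZGW serum libraries, against 4.92, 0.15 and 1.22 CPM in the high glucose libraries and 2.77, 0.30 and 0.51 CPM in the control libraries. High glucose library 1 and control library 1 carried its highest values, and high glucose library 3 lay between these and the rest. Psmb9, its partner subunit, had 6.39, 0.27 and 0.27 CPM in the ZGW serum libraries, with at most 0.61 CPM in any high glucose library and at most 0.30 CPM in any control library. ZGW serum library 1, with 81 reads, stood above the other libraries, which had at most 8 reads each. Psmb11, the beta subunit of thymic cortex, averaged 0.16 CPM per kilobase. Psmb10, the third immunoproteasome subunit, was the only variant with several CPM in most libraries.

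All proteasome genes together held a similar share of each library. The share was 0.292%, 0.266% and 0.259% of counts in the ZGW serum libraries, 0.271%, 0.272% and 0.258% in the high glucose libraries and 0.296%, 0.296% and 0.271% in the control libraries. The groups overlapped in each comparison. Without the 10 most counted genes of the table, the group means were 0.325%, 0.304% and 0.338%, and then ZGW serum lay above high glucose, and high glucose below control, in every library. The parts of the particle differed more than the whole. Regulatory particle genes held 0.0445%, 0.0369% and 0.0390% of counts in the ZGW serum libraries, against 0.0766%, 0.0554% and 0.0657% in high glucose and 0.0869%, 0.0760% and 0.0596% in control. All 3 ZGW serum libraries lay below all 6 others. Their mean was 0.0401 ± 0.0039% (SD, n = 3), which was 0.609 times that of high glucose and 0.541 times that of control. The separation held with TMM scaling and without the 10 most counted genes. The 14 standard core genes held 0.142 ± 0.0142% in ZGW serum, 0.118 ± 0.0188% in high glucose and 0.135 ± 0.0176% in control (SD, n = 3 each), and these groups overlapped.

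**Figure D2:**
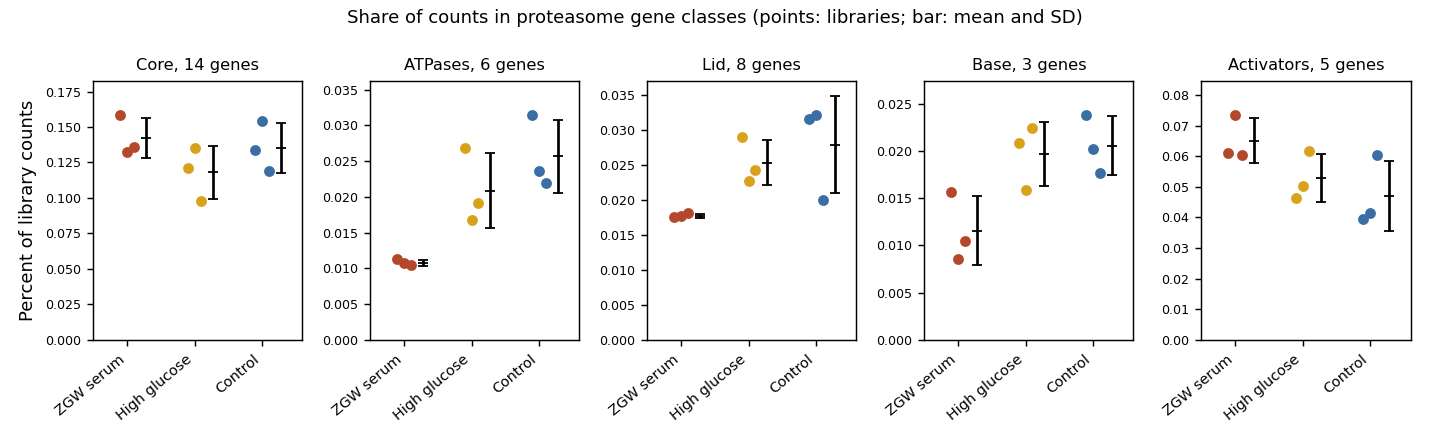
Percent of each library's counts in the standard core, ATPases, lid, other base subunits and caps (activators), for ZGW serum, high glucose and control, with points for libraries and bars for the mean and SD. The ATPase points of ZGW serum, up to 0.0113%, lie below all others, while the core points of the groups overlap.

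Within the regulatory particle the ATPases were furthest apart. They held 0.0113%, 0.0107% and 0.0104% of counts in the ZGW serum libraries, against 0.0269%, 0.0167% and 0.0191% in high glucose and 0.0315%, 0.0236% and 0.0220% in control. ZGW serum again lay below all other libraries, at 0.517 times the high glucose mean and 0.420 times the control mean. Psmc6 carried much of the gap to control. Without Psmc6 the other 5 ATPases held 0.00714% on average in ZGW serum, 0.0141% in high glucose and 0.0112% in control, and the lowest control library, at 0.00775%, was just above the highest ZGW serum library, at 0.00765%. Lid genes held 0.0175%, 0.0177% and 0.0181% in ZGW serum, against 0.0289%, 0.0228% and 0.0242% in high glucose and 0.0316%, 0.0322% and 0.0200% in control. The lid also separated ZGW serum from all other libraries.

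The first comparison, ZGW serum against high glucose, asks what the dosed serum did to embryos under the glucose load. Of the 46 members tested, 30 were lower in ZGW serum by log2 fold change, where 49.9% of all genes tested were lower. The median log2 fold change of the members was -0.39, against 0.00 over all genes. Among the 33 members that share at most 10% of their 50-base stretches with other genes, 19 were lower. Their median was -0.28. The regulatory particle had 15 of 17 genes lower, with a median of -0.56. The standard core had 6 of 14 lower, with a median of 0.33. Inside the core the rings differed, with 5 of 7 tested alpha subunits lower at a median of -0.43 and 6 of 7 beta subunits higher at a median of 0.69. Leaving out single libraries gave 14 to 16 lower regulatory particle genes, with medians from -0.74 to -0.36, the weakest without high glucose library 1. It gave 6 to 7 lower core genes, with medians from 0.064 to 0.45, the lowest without ZGW serum library 3. The ATPase median moved to -0.42 without high glucose library 1, and the alpha ring median to -0.066 without the same library. Counting only genes that share at most 10% of their 50-base stretches with other genes, 11 of 13 regulatory particle genes and 2 of 8 core genes were lower. Without ZGW serum library 3, alone or together with control library 1, that core count was 4 of 8. Transcript length moved with these classes. The core has a median transcript of 1163 bases and the regulatory particle one of 1819 bases, and across 16245 genes the log2 fold change had a Spearman rho of -0.12 with length. Its part in the difference was not tested.

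No member passed edgeR's quasi-likelihood test at an adjusted p of 0.05 in this comparison, and neither did any other gene, a background of 0%. At an unadjusted p under 0.05, 6 members were lower and 0 were higher, where 4.89% of all genes were lower and 3.8% higher. They were the ATPases Psmc2, Psmc5 and Psmc6, the lid subunit Psmd11, the ubiquitin receptor Psmd4 and the low Psmb8. The count of 6 became 3 without ZGW serum library 2 and 2 without high glucose library 1. The count of 0 higher became 3 without high glucose library 2, 2 with limma-voom, and 2 higher against 3 lower without control library 1 and ZGW serum library 3. limma-voom called 0 members. DESeq2 called 1, Psmd11, where it called 241 of all 16964 genes tested. In 7 members all ZGW serum libraries lay below all high glucose libraries, and in 2 all lay above, where 8.26% and 9.08% of all genes did so. The lower ones were Psmc2, Psmc5, Psmc6, Psmd1, Psmd5, Psmd8 and Psmd11, and the higher ones were Psma2 and Psmb6.

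Psmd11, a lid subunit that holds lid and core particle together, had 26.6, 23.9 and 34.3 CPM in the ZGW serum libraries, against 83.8, 42.6 and 86.1 CPM in the high glucose libraries. These groups did not overlap, while the control libraries, at 33.6, 45.8 and 38.1 CPM, overlapped with both. Its log2 fold change was -1.33 ± 0.36 (SE), with an adjusted p of 0.418 in edgeR's quasi-likelihood test, by the Benjamini-Hochberg method. DESeq2 gave an adjusted p of 0.0301, in a range of 0.0301 to 0.851 over 17 alternative settings. Of its 50-base stretches, 18.9% also occur in other genes, mostly A730017L22Rik, so its reads may be split.

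Psmc5, an ATPase of the base, had 18.5, 13.6 and 20.6 CPM in the ZGW serum libraries, against 57.6, 32.9 and 57.5 CPM in the high glucose libraries. Every ZGW serum library was below every high glucose library. The log2 fold change was -1.49 ± 0.44 (SE), with an adjusted p of 0.448 by edgeR's quasi-likelihood test. Psmc2, another ATPase, had 25.3, 15.4 and 13.7 CPM in ZGW serum, against 45.4, 34.6 and 65.3 CPM in high glucose, and did not overlap. Its control libraries spread over 73.2, 30.2 and 9.57 CPM and took in both groups. Psmd4, which binds ubiquitin chains, had 96.2, 32.6 and 80.0 CPM in ZGW serum, against 155, 94.6 and 169 CPM in high glucose. Only ZGW serum library 1 and high glucose library 2 overlapped, and the log2 fold change was -1.01 ± 0.40 (SE; adjusted p = 0.543, edgeR).

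The beta ring had the opposite sign. Psmb6, which carries the caspase-like site, had 127, 70.0 and 88.9 CPM in ZGW serum, against 49.5, 68.7 and 50.8 CPM in high glucose. The groups did not overlap, by a narrow gap, and the control libraries at 23.3, 88.5 and 82.5 CPM overlapped with both. The log2 fold change was 0.76 ± 0.46 (SE; adjusted p = 0.688, edgeR). Psma2, an alpha ring subunit, had 324, 317 and 307 CPM in ZGW serum, against 234, 273 and 157 CPM in high glucose and 193, 224 and 253 CPM in control. All ZGW serum libraries were above the other 6, and the log2 fold change against high glucose was 0.51 ± 0.26 (SE; adjusted p = 0.607, edgeR). Psmb3 and Psmb1, both beta subunits without a cutting site, had log2 fold changes of 0.65 ± 0.31 and 0.71 ± 0.36 (SE), with overlapping libraries. Of the 50-base stretches of Psmb3, 55.8% also occur in other genes, so its reads may be split. Psmb7, the trypsin-like subunit, was the beta subunit with a negative value, -0.17 ± 0.50, and 34.9% of its exonic bases lie in Nek6. Outside the core, the assembly chaperone Psmg2 was also higher in ZGW serum than in high glucose. Its log2 fold change was 0.88 ± 0.51 (SE; adjusted p = 0.666, edgeR), with overlap.

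**Figure D3:**
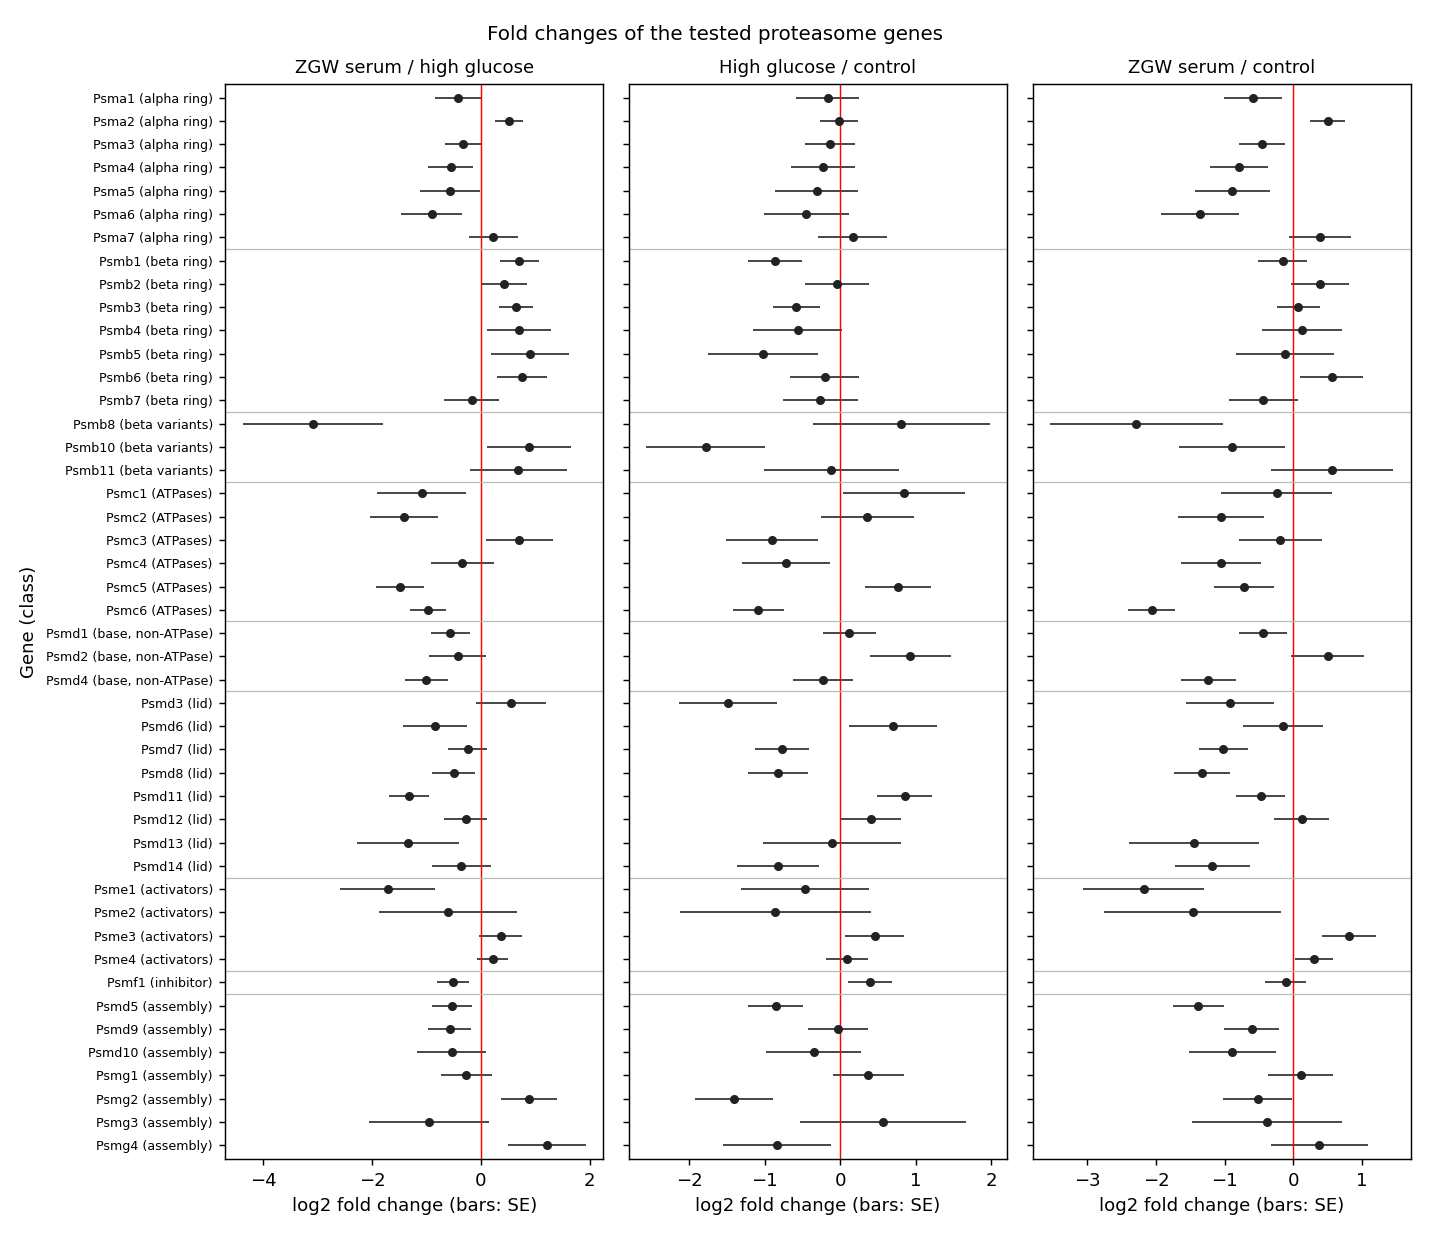
Log2 fold change of each tested proteasome gene with its standard error, ordered by class, for ZGW serum against high glucose, high glucose against control and ZGW serum against control. ATPases and lid genes lie mostly below 0 in both ZGW serum comparisons, with medians of -1.03 and -0.88 for the ATPases, and all 7 beta ring genes lie below 0 in high glucose against control, though 4 of 7 did without control library 2.

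Members named for their level or their cutting site had wide spreads. Psmb5 had 3.79, 19.04 and 7.65 CPM in ZGW serum, 7.57, 4.08 and 4.65 CPM in high glucose and 5.62, 13.2 and 14.3 CPM in control, with overlap throughout. Psmb7 had 74.2, 71.1 and 28.2 CPM in ZGW serum, 59.4, 104 and 32.3 CPM in high glucose and 49.1, 108 and 77.6 CPM in control. Neither catalytic subunit set any group apart. Psmb2 had 184, 101 and 354 CPM in ZGW serum, 126, 192 and 157 CPM in high glucose and 205, 171 and 113 CPM in control. Psma1 had 117, 119 and 48.5 CPM in ZGW serum, 146, 160 and 76.5 CPM in high glucose and 191, 143 and 94.3 CPM in control. In both genes the libraries of all 3 groups overlapped. Psmc3, the lowest ATPase, had 5.13, 13.7 and 12.7 CPM in ZGW serum, 4.99, 7.24 and 7.10 CPM in high glucose and 15.8, 13.2 and 7.02 CPM in control. It was the ATPase with a positive log2 fold change, 0.71 ± 0.61 (SE), in ZGW serum against high glucose. Psmg1, the partner of Psmg2 in alpha ring assembly, had 25.7, 22.9 and 62.0 CPM in ZGW serum, 41.2, 37.1 and 54.8 CPM in high glucose and 26.2, 24.1 and 52.3 CPM in control, with overlap. Psmd13 had at most 2.63 CPM in any library, and 15.8% of its stretches are shared, mostly with Sirt3.

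The comparison of high glucose with control asks what the glucose load did to proteasome transcripts. It shares the high glucose libraries with the comparison above, so opposite signs between them are no separate observation. Of 46 members, 31 were lower in high glucose, where 51% of all genes were lower, and the median log2 fold change was -0.21 against -0.02 over all genes. The standard core had 13 of 14 genes lower with a median of -0.24, and all 7 beta ring genes were lower with a median of -0.56. When single libraries were left out, the count of lower core genes ran from 9 to 13, with 9 without high glucose library 3 or control library 2, and its median from -0.41 to -0.063. The count of lower beta ring genes was 4 of 7 without control library 2, and that of alpha ring genes was 3 of 7 without high glucose library 3, against 6 of 7 with all libraries. The regulatory particle was divided, with 9 of 17 lower and a median of -0.11. That median was 0.22 without control library 1, 0.10 without high glucose library 2 and -0.44 without high glucose library 1, so its sign rested on single libraries. Among genes with at most 10% shared sequence, 8 of 13 regulatory particle genes were lower with a median of -0.71, and 7 of 8 core genes with a median of -0.18. Over all classes, 22 of 33 such members were lower, with a median of -0.20. Across 16245 genes the log2 fold change had a Spearman rho of 0.18 with transcript length, and its part in these values was not tested.

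No member and no other gene passed edgeR's test at an adjusted p of 0.05, a background of 0%. limma-voom and DESeq2 called 0 members, where DESeq2 called 129 of all 16964 genes tested. At an unadjusted p under 0.05, 6 members were lower and 1 was higher, where 3.5% of all genes were lower and 3.88% higher. The lower ones were Psmb1, Psmb10, Psmc6, Psmd3, Psmd5 and Psmg2, and the higher one was Psmd11. The count of 6 became 2 without high glucose library 3 or control library 2, and 3 without high glucose library 1 or control library 1. In 7 members all high glucose libraries lay below all control libraries, where 6.91% of all genes did. These were Psmb10, Psmc6, Psmd3, Psmd5, Psmd14, Psmg2 and Psmg4. In Psmd2 and Psmf1 all high glucose libraries lay above control, where 6.84% of genes did.

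Psmg2, a chaperone that starts the alpha ring, had 7.49, 20.9 and 15.3 CPM in high glucose, against 59.9, 22.0 and 33.8 CPM in control. The gap between the groups was about 1 CPM, and the log2 fold change was -1.40 ± 0.52 (SE; adjusted p = 0.627, edgeR). Psmb10 had 1.89, 7.47 and 1.31 CPM in high glucose, against 11.5, 12.2 and 13.0 CPM in control, without overlap. Its log2 fold change was -1.78 ± 0.79 (SE; adjusted p = 0.672, edgeR), and ZGW serum, at 3.79, 5.69 and 10.3 CPM, was also below control. Psmb1 had 73.8, 118 and 83.7 CPM in high glucose, against 114, 239 and 148 CPM in control, overlapping by 1 library on each side. Psmd3, a lid scaffold subunit, had 5.60, 9.01 and 5.79 CPM in high glucose, against 11.5, 28.9 and 16.4 CPM in control. These groups did not overlap, and the log2 fold change was -1.48 ± 0.65 (SE; adjusted p = 0.672, edgeR). Psmf1, the inhibitor, had 115, 117 and 160 CPM in high glucose, against 102, 92.5 and 103 CPM in control. High glucose was above control in every library, with a log2 fold change of 0.40 ± 0.30 (SE; adjusted p = 0.811, edgeR).

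Psmd2, a scaffold of the base, had 26.8, 22.6 and 21.8 CPM in high glucose, against 11.4, 7.60 and 18.3 CPM in control. High glucose was above control in every library, with a log2 fold change of 0.93 ± 0.54 (SE; adjusted p = 0.748, edgeR), and 26.4% of its stretches are shared with other genes. Psmd11 and Psmc5 were also higher in high glucose than in control, by log2 fold changes of 0.85 ± 0.36 (SE; adjusted p = 0.662, edgeR) and 0.77 ± 0.44 (SE; adjusted p = 0.741, edgeR), with overlapping libraries. Psmd6, a lid subunit, had 44.1, 26.0 and 37.2 CPM in high glucose, against 22.3, 37.1 and 6.80 CPM in control, which overlapped. Its log2 fold change was 0.70 ± 0.58 (SE; adjusted p = 0.840, edgeR).

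The comparison of ZGW serum with control sets the glucose and serum together against neither. It shares libraries with both comparisons above. Of 46 members, 33 were lower in ZGW serum, where 50% of all genes were lower, and the median log2 fold change was -0.46 against 0.00. The regulatory particle had 15 of 17 genes lower with a median of -0.93, including all 6 ATPases at a median of -0.88 and 7 of 8 lid genes at a median of -0.97. The standard core had 8 of 14 lower with a median of -0.13. When single libraries were left out, the counts ran from 13 to 15 for the regulatory particle and from 7 to 9 for the core. The lowest regulatory particle count came without ZGW serum library 1, and 4 of 6 ATPases were then lower. Without control library 1 the ATPase median was -0.46. The core median ran from -0.35 without control library 1 to -0.052 without control library 2. Without control library 1 and ZGW serum library 3 they were 14 of 17 and 8 of 14. Among genes with at most 10% shared sequence they were 12 of 13 and 3 of 8. Over all classes, 22 of 33 such members were lower, with a median of -0.52. Across 16245 genes the log2 fold change had a Spearman rho of 0.04 with transcript length.

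No member and no other gene passed edgeR's test at an adjusted p of 0.05, a background of 0%. At an unadjusted p under 0.05, 7 members were lower and 0 were higher, where 5.65% of all genes were lower and 4.21% higher. They were Psma6, Psmc6, Psmd4, Psmd5, Psmd7, Psmd8 and Psme1, and the count was 4 without control library 2. limma-voom called 0 members. DESeq2 called 2, Psmc6 and Psmd5, where it called 348 of all 16964 genes tested. In 14 members all ZGW serum libraries lay below all control libraries, where 7.3% of all genes did, and Psma2 alone lay above, where 9.02% did. The lower ones were Psma4, Psma5, Psma6, Psmb8, Psmb10, Psmc4, Psmc6, Psmd4, Psmd5, Psmd7, Psmd8, Psmd9, Psmd14 and Psme1. Of these, Psmb8 was near the floor, with 4 reads in both ZGW serum library 2 and control library 2.

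Psmc6, an ATPase of the base at chromosome 14, 45329788 to 45349705, had the lowest p of the members in this comparison. It had 41.6, 27.3 and 37.3 CPM in the ZGW serum libraries, 105, 54.3 and 50.7 CPM in the high glucose libraries and 155, 143 and 146 CPM in the control libraries. The 3 groups did not overlap, with ZGW serum lowest, high glucose between and control highest. Group means were 35.4 ± 7.32, 69.8 ± 30.1 and 148 ± 6.42 CPM (SD, n = 3 each). Against control the log2 fold change was -2.06 ± 0.34 (SE) in ZGW serum, with an unadjusted p of 9.6e-05 and an adjusted p of 0.338 by edgeR's quasi-likelihood test fitted across all genes. DESeq2 gave an adjusted p of 1.21e-05, in a range of 1.21e-05 to 0.726 over 17 alternative settings, and the log2 fold change stayed between -2.19 and -1.94 when single libraries were left out. High glucose against control gave -1.08 ± 0.33 (SE; adjusted p = 0.627, edgeR), and ZGW serum against high glucose gave -0.98 ± 0.33 (SE; adjusted p = 0.486, edgeR). Almost none of its sequence, 0.0458% of its stretches, occurs in another gene.

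Psmd5, a chaperone of the ATPase ring, had the same order. It had 16.1, 13.9 and 12.4 CPM in ZGW serum, 24.2, 19.02 and 18.2 CPM in high glucose and 34.7, 42.6 and 33.6 CPM in control. No library of a group overlapped with another group. Against control the log2 fold change was -1.39 ± 0.37 (SE) in ZGW serum, with an adjusted p of 0.384 by edgeR's quasi-likelihood test. DESeq2 gave an adjusted p of 0.00146, in a range of 0.00146 to 0.730 over 17 alternative settings. Group means ran in the order control, high glucose, ZGW serum in 18 of 46 members, or 39.1%, against 18.0% of all genes tested.

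Further regulatory particle genes were lower in ZGW serum than in control. Psmd4 had 96.2, 32.6 and 80.0 CPM in ZGW serum, against 194, 168 and 129 CPM in control, with no overlap and a log2 fold change of -1.24 ± 0.40 (SE; adjusted p = 0.409, edgeR). Psmd8, a lid subunit, had 28.3, 20.2 and 30.7 CPM in ZGW serum, against 98.6, 63.0 and 36.8 CPM in control. Those groups did not overlap, though control library 3 came close, and the log2 fold change was -1.33 ± 0.40 (SE; adjusted p = 0.403, edgeR). Psmd7, the lid partner of Psmd14, had 41.8, 44.9 and 40.4 CPM in ZGW serum, against 107, 103 and 46.7 CPM in control. Again control library 3 was nearest to ZGW serum, and the log2 fold change was -1.02 ± 0.36 (SE; adjusted p = 0.434, edgeR). Psmd14 itself had 6.47, 10.8 and 6.58 CPM in ZGW serum, against 14.3, 25.3 and 14.6 CPM in control, with no overlap. The base scaffold Psmd2 went the other way, at 0.50 ± 0.53 (SE; adjusted p = 0.798, edgeR), with overlap. Of the core, Psma2 gave 0.50 ± 0.26 (SE; adjusted p = 0.549, edgeR) without overlap. Psmb6 gave 0.56 ± 0.46 (SE; adjusted p = 0.727, edgeR) with overlap.

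**Figure D4:**
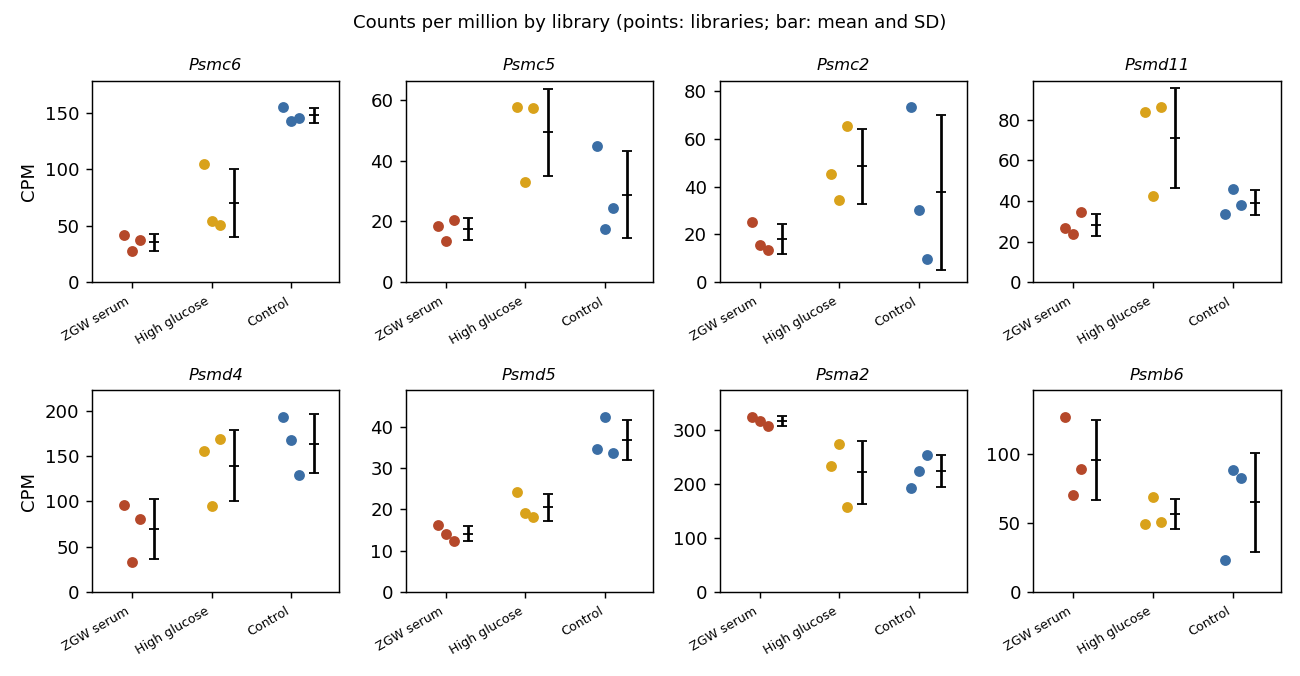
CPM in each library of selected proteasome genes, with ZGW serum left, then high glucose, then control, and bars for the group mean and SD. Psmc6 and Psmd5 separate all 3 groups, with Psmc6 means of 35.4, 69.8 and 148 CPM, while Psma2 is highest in ZGW serum.

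The caps had values on both sides. As a class they held 0.0611%, 0.0735% and 0.0605% of counts in ZGW serum, against 0.0395%, 0.0413% and 0.0603% in control. High glucose libraries held 0.0465%, 0.0502% and 0.0616%. ZGW serum lay above control in every library, by a narrow gap, at 1.38 times the control mean, and overlapped with high glucose. Without the 10 most counted genes it lay above both groups, and with TMM scaling it overlapped with both. Psme4, the large single-chain cap that acts on acetylated histones in the testis, had 454, 451 and 414 CPM in ZGW serum, 316, 372 and 449 CPM in high glucose and 333.0, 246 and 490 CPM in control. These groups overlapped, and the log2 fold change of ZGW serum against control was 0.30 ± 0.28 (SE; adjusted p = 0.762, edgeR). Psme3, the nuclear cap, had 125, 200 and 224 CPM in ZGW serum, against 61.2, 151 and 99.5 CPM in control, also overlapping, with a log2 fold change of 0.82 ± 0.39 (SE; adjusted p = 0.532, edgeR). Psme1, a cap subunit induced by interferon, had 0.39, 5.05 and 3.20 CPM in ZGW serum, against 9.49, 14.2 and 15.7 CPM in control. Its groups did not overlap, and the log2 fold change was -2.18 ± 0.88 (SE; adjusted p = 0.470, edgeR). ZGW serum library 1 had 5 reads of it, and 14.1% of its 50-base stretches also occur in other genes. Psme2, its partner, had 2.68, 4.57 and 0.71 CPM in ZGW serum and 0.29, 11.5 and 10.4 CPM in control, and shares 59.3% of its stretches, most with Psme2b, so the split between them is uncertain.

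**Figure D5:**
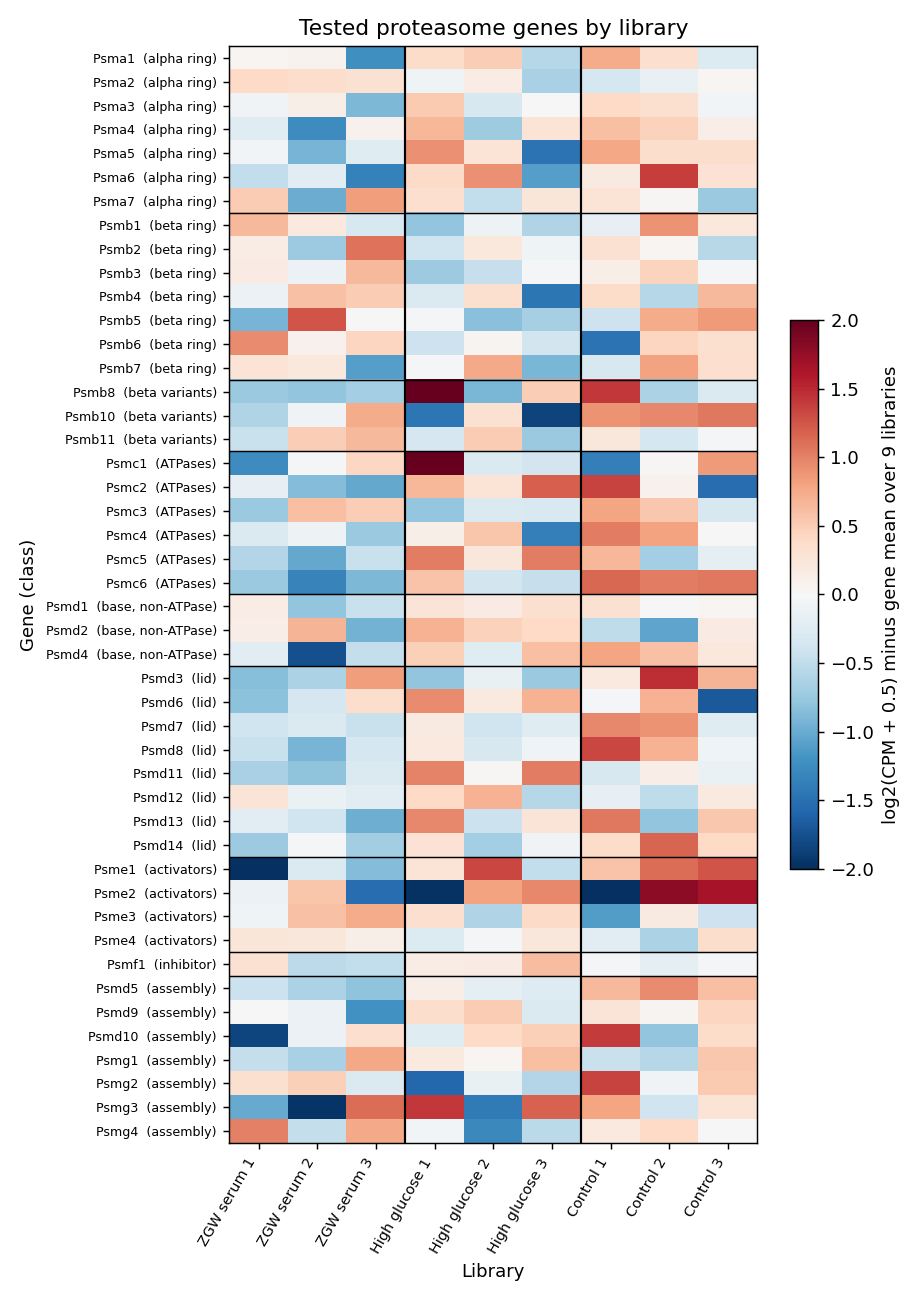
Deviation of each tested proteasome gene from its own mean over the libraries, in log2 of CPM plus 0.5, with columns for ZGW serum, high glucose and control libraries and genes grouped by class. By TMM-scaled log2 CPM, the median deviation of members lies between -0.28 and -0.17 in ZGW serum libraries and between 0.20 and 0.34 in control libraries.

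Other genes of the pathway were described by lists chosen for their roles, with 0 genes called by edgeR in any list or comparison. Of 12 proteasome partners in the table, 5 were lower in ZGW serum than in high glucose, 5 in high glucose than in control and 6 in ZGW serum than in control. Sem1, a small lid subunit listed as Shfm1, had 183, 283 and 207 CPM in ZGW serum, 138, 109 and 132 CPM in high glucose and 190, 201 and 189 CPM in control. High glucose lay below both other groups, and the log2 fold changes were 0.83 ± 0.25 (SE; adjusted p = 0.448, edgeR) for ZGW serum against high glucose and -0.61 ± 0.25 (SE; adjusted p = 0.652, edgeR) for high glucose against control. Of 17 ubiquitin and activation genes, 13, 10 and 11 were lower in those same comparisons. Rps27a, which encodes ubiquitin fused to a ribosomal protein, had 277, 168 and 137 CPM in high glucose, against 319, 411 and 305 CPM in control, without overlap. Ube2d3, a ubiquitin-conjugating enzyme, had 3386, 1762 and 2919 CPM in ZGW serum, against 9543, 3382 and 5256 CPM in high glucose. The groups touched, since ZGW serum library 1 was level with high glucose library 2, and the log2 fold change was -1.17 ± 0.43 (SE; adjusted p = 0.517, edgeR). Ube2s, which extends chains for the anaphase-promoting complex, gave -0.88 ± 0.36 (SE; adjusted p = 0.474, edgeR) in ZGW serum against control, with overlap. Among the partners, the associated deubiquitinase Usp14 gave -0.77 ± 0.52 in ZGW serum against high glucose, Ecpas, listed as AI314180, gave 1.54 ± 0.64 in high glucose against control, and Akirin2 and Zfand5 gave 0.62 ± 0.37 and 0.49 ± 0.31 in ZGW serum against control (SE). Among 15 genes for the segregase Vcp and the shuttle factors, 9 were higher in each comparison. Rad23b, a shuttle receptor, had 72.5, 134 and 185 CPM in ZGW serum, against 59.0, 62.3 and 59.9 CPM in control, with a log2 fold change of 1.11 ± 0.34 (SE; adjusted p = 0.403, edgeR). ZGW serum was above control in every library. Ubqln1, another shuttle, gave 0.75 ± 0.29 in ZGW serum against control and Ubqln4 gave 1.27 ± 0.66 in ZGW serum against high glucose (SE), both without overlap. In high glucose against control the Vcp cofactors Nsfl1c and Faf1 gave -1.50 ± 0.66 and 0.84 ± 0.50 (SE), with overlap.

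Of 17 genes for regulators of proteasome gene expression, 14 were lower in ZGW serum than in high glucose, 4 were lower in high glucose than in control and 13 were lower in ZGW serum than in control. Nfe2l1 had 22.8, 16.2 and 29.6 CPM in ZGW serum, 50.7, 20.9 and 34.1 CPM in high glucose and 17.2, 39.7 and 20.5 CPM in control. The 3 groups overlapped. Nfe2l3, a relative of it, had 2.13, 4.89 and 2.76 CPM in ZGW serum, 10.5, 17.9 and 7.02 CPM in high glucose and 3.503, 2.61 and 6.50 CPM in control. High glucose lay above both, and ZGW serum against high glucose gave a log2 fold change of -1.85 ± 0.72 (SE; adjusted p = 0.533, edgeR). Hsf2, a heat shock factor, had 0.079, 2.82 and 1.51 CPM in ZGW serum, against 12.2, 14.9 and 2.69 CPM in high glucose, with a log2 fold change of -2.74 ± 1.07 (SE; adjusted p = 0.533, edgeR). Only ZGW serum library 2 and high glucose library 3 overlapped. Stat3 gave 0.97 ± 0.55 in high glucose against control, and Irf1 gave 1.37 ± 0.63 in ZGW serum against control (SE). Of 10 genes for loading of peptides on MHC class I, 6 could be tested, and 2, 5 and 3 of them were lower in those comparisons. B2m gave 0.66 ± 0.44 and -0.88 ± 0.44 in the first pair of comparisons, Tapbp 1.00 ± 0.76 in the first, Calr 0.48 ± 0.28 in high glucose against control and H2-D1 -0.98 ± 0.54 in ZGW serum against control, all with overlapping libraries (SE).

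Some marker lists of stage and of other cells set groups apart, and others overlapped. The 8 transcripts of the 2-cell stage were all lower in ZGW serum than in high glucose, with summed levels of 1605 to 3447 CPM in ZGW serum, 4792 to 9248 CPM in high glucose and 2915 to 7372 CPM in control. Oocyte markers summed to 1136 to 2285 CPM in ZGW serum, 1500 to 2051 CPM in high glucose and 887 to 1453 CPM in control. The 8 stroma and epithelium markers, of which 5 of 6 tested were lower in ZGW serum than in control, summed to 25.9 to 69.4 CPM in ZGW serum, 65.4 to 110 CPM in high glucose and 107 to 210 CPM in control. The 8 blood markers summed to 323 to 533 CPM in ZGW serum, 89.9 to 307 CPM in high glucose and 234 to 357 CPM in control. Nearly all of it came from the alpha globin genes Hba-a1 and Hba-a2. Both had the same highest level, 262 CPM, and the same mean, 153 CPM, so the sum may count the same signal for each. The beta globin genes Hbb-b1 and Hbb-b2 never passed 0.326 and 0.245 CPM, and Ptprc never passed 0.0532 CPM. The 12 cumulus markers summed to at most 18.9, 18.2 and 38.1 CPM in ZGW serum, high glucose and control libraries. The 4 sperm markers summed to 13.3 to 18.5 CPM in ZGW serum, 3.67 to 7.42 CPM in high glucose and 7.01 to 12.3 CPM in control. For these, ZGW serum lay above all other libraries. The part of stage or other cells in the proteasome values was not tested.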

How the data were processed

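RNA from 9 libraries of pooled mouse 2-cell embryos was sequenced. Trimming with Trim Galore and build mm10 are named in the submitters' processing notes. Not given in the sources used here are the aligner, counter, annotation and use of strand. The authors deposited raw counts per gene symbol in 1 table. Genes passing filterByExpr (minimum count 10), 16964 in number, were fitted in 1 model of all 9 libraries with TMM scaling, by the quasi-likelihood test of edgeR 4.0.16 in R 4.3.3. P-values were adjusted over all genes by Benjamini-Hochberg, with a threshold of 0.05. DESeq2 1.42.0, limma-voom (limma 3.58.1), other filters, fits without single libraries and a replicate block were alternatives. The test was checked on simulated counts for high glucose against control, with changes set in genes averaging 10 CPM or more. It recovered 1.33% of 2-fold, 42.7% of 4-fold, 78.7% of 8-fold and 92% of 16-fold changes. It made 10 false calls beside 322 true ones. Lengths, positions and shared 50-base stretches come from GENCODE annotation of GRCm38. Members named in each comparison were the 5 of lowest p in each direction among those averaging 10 CPM or more, the highest and lowest per length in each class, and the catalytic and variant subunits. Of each partner list the 2 genes of lowest p were named. One such gene is not reported here. Psmd14, Psme1 and Psme2 fall outside this rule and were chosen after their values were seen. Nfe2l1 falls outside the rule for the lists. Same-numbered libraries of different groups were not paired by label. Members and lists were chosen with earlier results of these data known. A difference that misses the threshold may still exist at this depth and spread.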

Additional observations from a re-analysis of the deposited data

How the results depend on the processing

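DESeq2 called 241 genes, 1 of them a member, in ZGW serum against high glucose, 129 genes and 0 members in high glucose against control and 348 genes and 2 members in ZGW serum against control. It tested 16964 genes in each comparison, 46 of them members. limma-voom, no filter on low counts and a filter of 10 counts in 6 libraries each called 1 gene, no member, in ZGW serum against control. When single libraries were left out, the median log2 fold change of the members ran from -0.41 to -0.18 for ZGW serum against high glucose, from -0.38 to -0.053 for high glucose against control and from -0.62 to -0.37 for ZGW serum against control, where it was -0.36 without control library 1 and ZGW serum library 3. The first extreme value, -0.18, came without ZGW serum library 3, also when control library 1 was left out with it; without high glucose library 1 it was -0.24. Without the 10 most counted genes the members' share was 0.325% in ZGW serum, 0.304% in high glucose and 0.338% in control. When single libraries were left out, the sign of the log2 fold change turned for 6 of 46 members in ZGW serum against high glucose, 18 of 46 in high glucose against control and 12 of 46 in ZGW serum against control, with values of up to 1.09, 0.85 and 0.39 in size over all libraries. Of the catalytic and variant subunits and the members named by p in the comparison concerned, 5 turned. Members named by p in another comparison also turned. They were Psmd3 in ZGW serum against high glucose and Psma2, Psmc2 and Psme4 in high glucose against control. In ZGW serum against control they were Psmb1, Psmb3, Psmd6 and Psmf1. When single libraries, or control library 1 with ZGW serum library 3, were left out, Psmb7 ran from -0.50 to 0.32 in ZGW serum against high glucose. limma-voom gave it 0.094. In high glucose against control the same alternatives gave -0.61 to 0.093 for Psmb6, -0.79 to 0.062 for Psmb7, -0.79 to 2.35 for Psmb8 and -1.11 to 0.31 for Psmb11. In ZGW serum against control they gave -0.98 to 0.27 for Psmb5. The cause was not tested. The replicate numbers share no documented pairing, and same-numbered libraries correlated at -0.01 to 0.10. With the replicate number as a block, the counts of calls stayed at 0 in all 3 comparisons and the member medians were -0.41, -0.32 and -0.52 in that order. The common biological coefficient of variation of 0.731 limits what 3 libraries a group can show.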
